A study of Arabidopsis with 12 samples.

Results

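The flg22 response of *wlim2a-1* seedlings was described from 2 of the 4 deposited columns, *wlim2a-1* flg22 and *wlim2a-1* mock. A gene entered the comparison where its FPKM (fragments per kilobase of transcript, scaled to the number of mapped fragments) was at least 1 in either column. This left 19045 of 27371 genes (69.6%). The *wlim2a-1* line is a CRISPR-Cas9 mutant in the Col-0 background with an inserted base in the coding region of *WLIM2A*, which shifts the reading frame and ends the protein early. It is 1 line, selected for the absence of Cas9, so an effect of the allele and an effect of the line cannot be told apart. Whole seedlings were 14 days old, had spent a night in liquid medium, and were then treated for 1 h with flg22 at 1 µM or, as mock, with water. WT (Col-0) seedlings received the same flg22 and mock treatments. Each of the 4 conditions had 3 biological replicates, 12 samples in all, of which 6 were mutant. The replicates of a condition had been merged by the authors into 1 value per gene, and no spread, test or confidence interval stands behind any difference. Library depth is unknown.

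Flg22 is a peptide from bacterial flagellin. Arabidopsis detects it at the cell surface with the receptor kinase FLS2 and the co-receptor BAK1, and the signal passes through cytoplasmic kinases, calcium influx, an NADPH oxidase and MAP kinase cascades to transcription factors of the WRKY, ERF and MYB families. Within an hour, seedlings switch on receptors, signalling enzymes and the synthesis of defence compounds such as indole glucosinolates and camalexin. This state is called PAMP-triggered immunity (PTI). WLIM2A belongs to the LIM proteins, which bind and bundle actin filaments.

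After flg22, 1068 genes were at least 2-fold higher (5.61%) and 822 were at least 2-fold lower (4.32%) than in mock, both on the scale of FPKM + 1, as were all log2 fold changes below. The added 1 makes differences of low genes look smaller than they are. Over the tested genes the log2 fold change had a median of −0.09. The higher genes reached further from mock, as 345 of them passed 4-fold and 60 passed 16-fold, against 117 and 29 of the lower genes. The higher genes had a median of 6.27 FPKM in mock and 29.5 FPKM after flg22. The lower genes went from a median of 20.04 FPKM in mock to 6.88 FPKM after flg22. Just inside and outside the threshold, log2 fold changes were 1.0004 and 0.9996 on the higher side and −1.0001 and −0.9996 on the lower side. The balance of higher to lower genes depended on the scaling of the columns. It was 1267 to 634 when nuclear genes other than the most abundant locus were set to the same sum, which raised the median of all genes by 0.11 on the log2 scale. It was 533 to 3734 relative to the mean of *ACT2* and *UBQ10*, the reference transcripts of the study, which lowered the median by 0.52. Those transcripts were themselves at log2 0.46 and 0.69 after flg22.

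**Figure D1:**
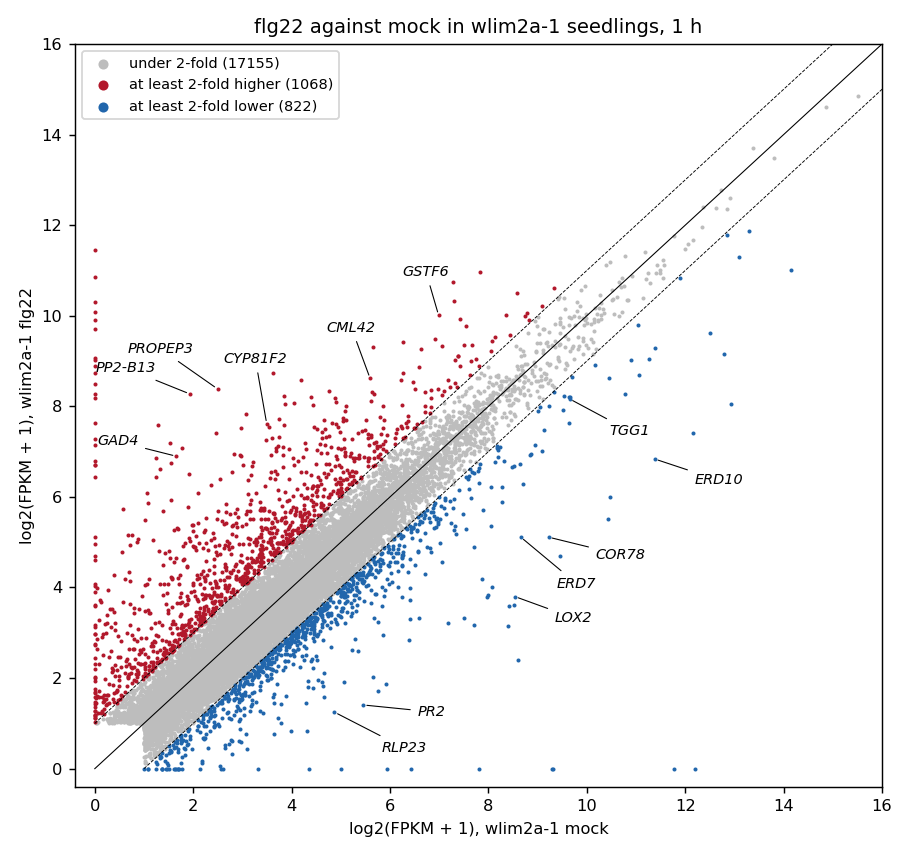
Each point is 1 of the 19045 tested genes, with log2(FPKM + 1) in *wlim2a-1* mock on the x axis and in *wlim2a-1* flg22 on the y axis. Red points (1068) were at least 2-fold higher and blue points (822) at least 2-fold lower after flg22, dashed lines mark 2-fold, and the locus with the largest FPKM lies beyond the axes.

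*WLIM2A* itself was at 10.9 FPKM in *wlim2a-1* mock and 6.2003 FPKM after flg22, and at 12.6 and 11.6 FPKM in WT. An inserted base leaves the transcript countable, so these levels do not check the genotype. Of 16 marker genes of early PTI, 12 were higher and none was lower in *wlim2a-1*. These markers were listed with earlier results of these data known, so they are no independent check of the treatment label. A single nuclear locus, AT2G01021, held 56.5% of the summed FPKM in *wlim2a-1* mock and 67.4% after flg22. In WT its share went the other way, from 67.4% in mock to 28.9% after flg22. Genes encoded in the chloroplast held 4.88% of the remaining sum in *wlim2a-1* mock, 1.54% after flg22, and 1.92% and 1.27% in the corresponding WT columns. Among markers of cell types, all 5 guard cell genes were below 0 on the log2 scale (median −0.91). Their median level was low, 4.98 FPKM in mock and 2.29 FPKM after flg22. *SLAC1*, a guard cell anion channel, was called lower (log2 −1.04). That call was lost with the same nuclear sum or centring on the median, and all 5 were lower relative to *ACT2* and *UBQ10*. Of 7 root and root hair genes, 4 were above 0 and 3 below, and 1 was called lower (log2 −1.01). That call, too, was lost with the same nuclear sum or centring on the median. In whole seedlings, fewer cells of a type and less RNA per cell cannot be told apart, and the part of cell type composition in the results below was not tested.

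The lists of gene families and functions held 1618 of the tested genes, of which 200 were higher and 175 lower. Of 258 genes for perception and signalling, 67 were higher and 15 lower (median log2 0.29). Of 277 transcription factors, 46 were higher and 6 lower. The photosynthesis lists, organelle genomes included, held 208 tested genes, of which 11 were higher and 78 lower (median log2 −0.64), and the abiotic stress lists held 48, of which 4 were higher and 15 lower. The 4 scalings tried kept the sign of every list median of at least 0.3 in size, except that 7 such medians, all above 0, passed below 0 relative to *ACT2* and *UBQ10*. On that scale fewer genes were called higher, among them 9 WRKY factors, 9 ERF factors and 1 pattern recognition receptor, against 18, 14 and 6 on the deposited scale, and more were called lower, as 12 aliphatic glucosinolate genes and 21 arabinogalactan and fasciclin proteins, against 6 and 10.

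**Figure D2:**
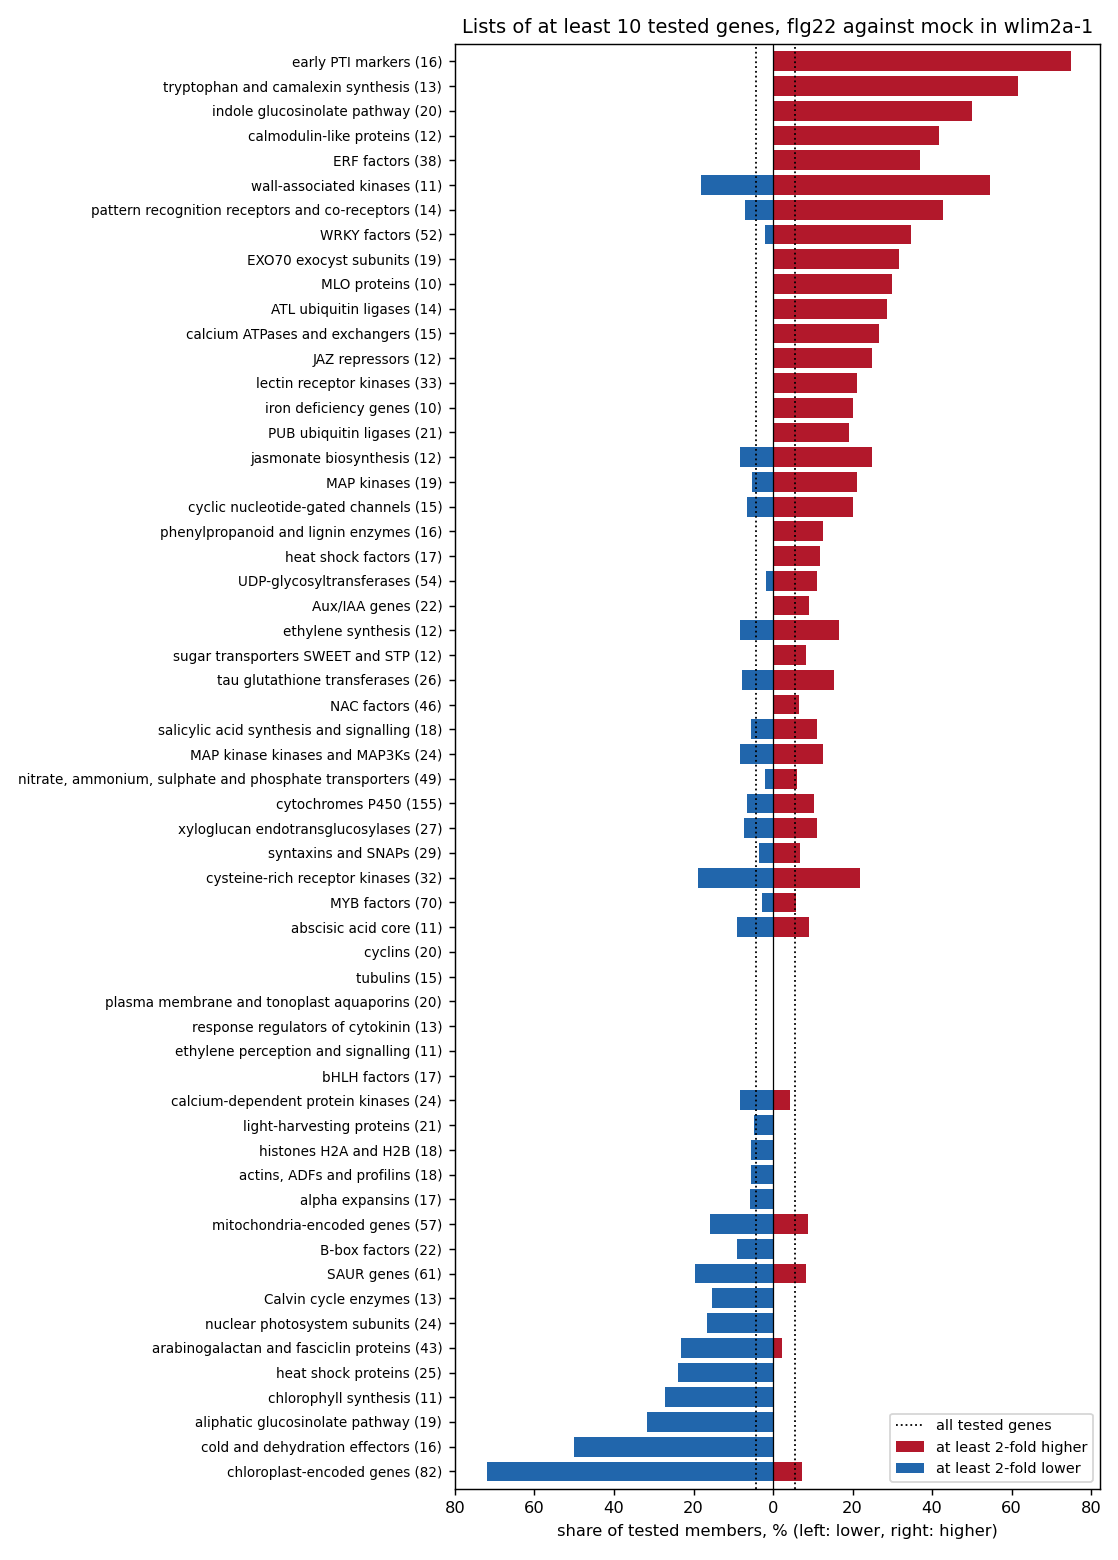
Share of tested members, in percent, that were at least 2-fold higher (red, to the right) or lower (blue, to the left) after flg22 in *wlim2a-1*, for the 58 lists with at least 10 tested genes (number in parentheses). Dotted lines mark the shares over all tested genes, 5.61% higher and 4.32% lower, and the lists run from early PTI markers (12 of 16 higher) to chloroplast-encoded genes (59 of 82 lower).

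The early PTI markers had a median log2 fold change of 2.16 in *wlim2a-1* and 1.78 in WT. *CYP81F2*, a cytochrome P450 that modifies indole glucosinolates, went from 10.3 FPKM in mock to 194 FPKM after flg22, and *MYB51*, a transcription factor of the same pathway, from 10.2 to 152 FPKM. The U-box ubiquitin ligases *PUB22* and *PUB23*, which dampen PTI, went from 10.7 to 84.3 FPKM and from 24.2 to 205 FPKM. *BIK1*, the cytoplasmic kinase directly below FLS2, was at 13.5 FPKM in mock and 49.6 FPKM after flg22. *FRK1*, a receptor kinase gene widely used as a flg22 reporter, was low in both columns, at 0.405 and 3.13 FPKM (log2 1.56). The markers under 2-fold were *AP2C1*, *ERF104*, *WRKY53* and *PHI-1*. Among these, *WRKY53* was at 16.7 and 17.6 FPKM in *wlim2a-1* and at 8.68 and 17.2 FPKM in WT.

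Of 14 pattern recognition receptors and co-receptors, 6 were higher and 1 was lower (median log2 0.76). *IOS1*, a receptor kinase that associates with FLS2 complexes, went from 5.48 to 31.5 FPKM. *LYK4*, which takes part in chitin perception, went from 10.5 to 31.1 FPKM, and *PEPR1*, a receptor of the Pep danger peptides, from 12.9 to 34.4 FPKM. *BAK1* was at 13.9 FPKM in mock and 35.1 FPKM after flg22. The gene on the lower side was *RLP23*, the receptor of the necrosis-inducing peptide nlp20, at 28.2 FPKM in mock and 1.38 FPKM after flg22 (log2 −3.62). Both WT columns had under 1 FPKM of this gene, 0.0785 and 0.189. The flg22 receptor gene *FLS2*, singled out after its values were seen, was at 31.3 FPKM in mock and 21.3 FPKM after flg22 (log2 −0.54), and at 10.9 and 13.9 FPKM in WT.

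The precursor of a danger peptide, *PROPEP3*, was among the genes that differed most. It went from 4.64 FPKM in mock to 333 FPKM after flg22 (log2 5.89) in *wlim2a-1*, and from 4.18 to 93.6 FPKM (log2 4.19) in WT. The receptor kinase families were not called alike. Wall-associated kinases, which contact pectin in the cell wall, had 6 higher and 2 lower genes of 11 tested. The higher ones were headed by the WAK-like gene *WAKL10*, at 0.647 FPKM in mock and 29.8 FPKM after flg22. The lower ones were the founding members *WAK1* (50.5 to 13.5 FPKM) and *WAK2* (48.2 to 14.4 FPKM), which in WT were at 1.39 and 7.86 FPKM in mock and 4.29 and 9.11 FPKM after flg22. Lectin receptor kinases had 7 higher and no lower genes of 33 tested, with *LECRK-IX.2* at 1.02 FPKM in mock and 43.9 FPKM after flg22. Cysteine-rich receptor kinases were divided, with 7 higher and 6 lower of 32 tested. *CRK13* (3.88 to 18.4 FPKM) and *CRK11* (7.61 to 33.2 FPKM) stood on the higher side. *CRK4* (11.4 to 2.01 FPKM) and *CRK40* (16.3 to 6.69 FPKM) stood on the lower side.

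**Figure D3:**
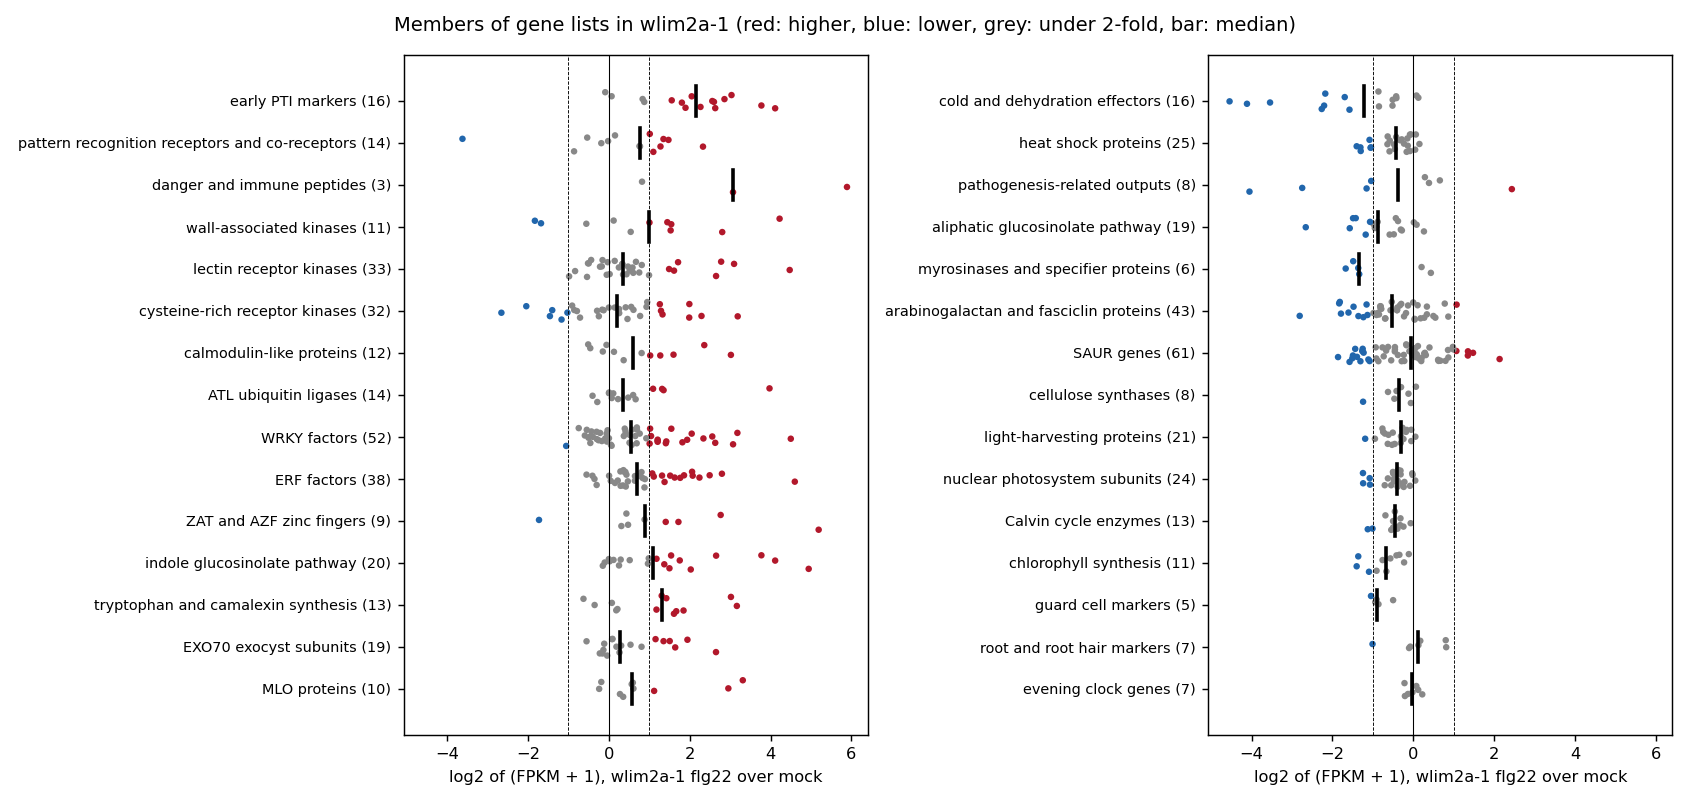
Log2 fold change of FPKM + 1 after flg22 in *wlim2a-1* (x axis) for each tested member of 30 lists, with the number tested in parentheses, dashed lines at 2-fold and a black bar at the median. On the left, medians lie between 0.20 for cysteine-rich receptor kinases and 3.07 for the 3 danger peptide genes listed. That list leaves out part of the family, as 6 tested genes with a *PROPEP* symbol had 2 higher and a median of 0.71. On the right, medians lie between −1.35 for myrosinases and specifier proteins and 0.13 for root markers.

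Kinases further down the pathway had a few calls on each side, beside 5.61% higher and 4.32% lower over all genes. Of 19 MAP kinases, 4 were higher, among them *MPK3*, a kinase at the end of the flg22 cascade, at 30.7 FPKM in mock and 79.0 FPKM after flg22. *MPK18* was lower, at 31.9 and 14.97 FPKM, and as the only one it made a share (5.26%) near that over all genes. Of 24 MAP kinase kinases and MAP3Ks, 3 were higher (12.5%) and 2 lower (8.33%). *MKK4*, which phosphorylates MPK3 and MPK6, went from 14.1 to 58.9 FPKM and *MAPKKK19* from 2.25 to 38.2 FPKM, while *MAPKKK7* was at 11.46 FPKM in mock and 4.13 FPKM after flg22. The NADPH oxidase *RBOHD*, the main source of the flg22 oxidative burst, was the member called of 5 tested and went from 12.9 to 45.5 FPKM.

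The calcium lists differed from one another. Calmodulin-like proteins had 5 higher and no lower genes of 12 tested (median log2 0.59). *CML42* went from 47.4 to 391 FPKM. *CML12*, also known as *TCH3* for its induction by touch, went from 441 to 1066 FPKM (log2 1.27) in *wlim2a-1* and from 99.8 to 1096 FPKM (log2 3.44) in WT, so that the level after flg22 was close in both genotypes while the mock level was not. Calcium ATPases and exchangers had 4 higher genes of 15, led by the plasma membrane pump *ACA12* (13.3 to 101 FPKM). Of 15 cyclic nucleotide-gated channels, 3 were higher (20%) and 1 was lower (6.67%). The lower one, *CNGC2*, a channel of defence signalling, was at 39.8 FPKM in mock and 18.4 FPKM after flg22. Of 24 calcium-dependent protein kinases, 1 was higher (4.17%, near the 5.61% over all genes) and 2 were lower (8.33%, beside 4.32%). *CPK32* was the higher one (15.8 to 47.9 FPKM), and *CPK29* was among the lower ones (17.6 to 4.64 FPKM).

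Ubiquitin ligases were called on the higher side only in the lists tested: 4 of 21 PUB genes and 4 of 14 ATL genes, and none was lower. *ATL31*, a RING ligase of carbon and nitrogen balance and defence, went from 6.73 to 120 FPKM, and its homologue *ATL6* from 32.0 to 81.3 FPKM.

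Transcription factor families differed in their shares. Of 52 WRKY factors, 18 were higher (34.6%) and 1 was lower, with a median log2 of 0.54, which became −0.03 relative to *ACT2* and *UBQ10*. *WRKY30* went from 0.590 to 35.0 FPKM, *WRKY40* from 5.33 to 56.3 FPKM and *WRKY28*, an activator of salicylic acid synthesis, from 3.19 to 34.2 FPKM. *WRKY33*, a regulator of camalexin synthesis and a MAP kinase substrate, went from 24.9 to 159 FPKM in *wlim2a-1* and from 10.7 to 171 FPKM in WT. Of 38 ERF factors, 14 were higher (36.8%) and none was lower (median log2 0.69). *ERF98* went from 2.76 to 90.3 FPKM, *ERF6*, a MAP kinase substrate of defence, from 27.4 to 196 FPKM, and *ERF-1* from 48.3 to 277 FPKM. Of 9 zinc finger factors of the ZAT and AZF group, 4 were higher, among them *ZAT11* (1.94 to 106 FPKM) and *ZAT10* (18.6 to 132 FPKM). *ZAT7* was lower, at 15.3 and 3.93 FPKM, and stood at 1.11 and 5.92 FPKM in WT.

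The larger MYB and NAC families had shares near the 5.61% over all genes, 4 of 70 and 3 of 46 higher. Their called members included *MYB51* (above), *MYB15*, a regulator of lignin in defence (3.34 to 30.4 FPKM), and the jasmonate-responsive NAC factor *NAC3* (AT3G15500, 7.89 to 44.7 FPKM). None of 17 genes listed under a bHLH name passed 2-fold, and that list does not cover the whole bHLH family. B-box factors, which act in light signalling, had no higher and 2 lower genes of 22, *BBX14* (799 to 198 FPKM) and *BBX15* (147 to 59.4 FPKM). Of 17 heat shock factors, *HSFB2A* (7.10 to 30.1 FPKM) and *HSF A4A* (9.42 to 35.5 FPKM) were higher. Some heat shock factors switch on chaperone genes in other settings. The heat shock proteins described below, listed by symbol or synonym only, had no higher member. Such a list need not cover the whole family, so nothing is read from setting it beside the factors.

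Indole glucosinolates are sulphur compounds made from tryptophan, which the myrosinase PEN2 activates at the site of attack. Of 20 genes of their pathway, 10 were higher and none was lower (median log2 1.08, and 0.44 relative to *ACT2* and *UBQ10*). The methyltransferases *IGMT1* and *IGMT2*, which act after CYP81F2, went from 17.8 to 118 FPKM and from 4.50 to 168 FPKM. *PEN2* went from 42.0 to 174 FPKM. Core enzymes also passed 2-fold, as *CYP83B1* (198 to 514 FPKM), outside the naming rule, but *CYP79B3*, which makes the common precursor, did not (53.8 to 64.3 FPKM). Tryptophan and camalexin synthesis had 8 higher and no lower genes of 13 (median log2 1.31). *ASA1* and *ASB1*, the subunits of anthranilate synthase at the entry to tryptophan, went from 18.9 to 62.3 FPKM and from 10.1 to 39.0 FPKM. *CYP71A12*, at the branch to camalexin, went from 2.79 to 33.0 FPKM, and the glutathione transferase *GSTF6* from 126 to 1029 FPKM.

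Other enzyme families held a few called members with large differences among many that did not pass 2-fold. Tau glutathione transferases had 4 higher and 2 lower genes of 26. *GSTU11* went from 1.08 to 67.3 FPKM (log2 5.03, and 3.22 in WT) and *GSTU12* from 0.679 to 34.7 FPKM. UDP-glycosyltransferases had 6 higher and 1 lower of 54, with *UGT85A1*, which glycosylates cytokinins, at 44.5 FPKM in mock and 207 FPKM after flg22. Cytochromes P450 had 16 higher and 10 lower genes of 155. *CYP706A2* (28.9 to 274 FPKM) and *CYP81D8* (6.39 to 52.1 FPKM) were on the higher side. Of 16 phenylpropanoid and lignin enzymes, *CCR2*, a cinnamoyl-CoA reductase of the lignin branch (3.15 to 27.6 FPKM), and *PAL2*, at the entry to the pathway (55.6 to 113 FPKM), were higher. None of 7 flavonoid and anthocyanin genes passed 2-fold.

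Secretion genes were called in a few families. Of 19 EXO70 subunits of the exocyst, which tethers secretory vesicles, 6 were higher and none was lower. *EXO70H7* went from 15.5 to 103 FPKM and *EXO70B2*, which acts in PTI, from 40.2 to 116 FPKM. Of 29 syntaxins and SNAPs, 2 were higher (6.90%, near the 5.61% over all genes) and 1 was lower. The higher ones were *SYP121* (46.5 to 141 FPKM), the plasma membrane syntaxin PEN1, and its close relative *SYP122* (29.6 to 186 FPKM), and the lower one was *SYP61* (8.93 to 3.22 FPKM), named outside the rule. The MLO family had 3 higher genes of 10, *MLO2*, *MLO6* and *MLO12*, which are known for their joint role in powdery mildew susceptibility. They went from 30.7 to 67.9, from 2.04 to 22.5 and from 1.83 to 27.2 FPKM. Transporters of nitrate, ammonium, sulphate and phosphate had 3 higher (6.12%, near the share over all genes) and 1 lower of 49. The ammonium transporters *AMT2* (10.3 to 38.4 FPKM) and *AMT1;1* (79.6 to 197 FPKM) were higher, and the nitrate transporter *NRT2.7* was lower (66.1 to 29.4 FPKM). Of 12 SWEET and STP sugar transporters, the hexose carrier *STP13* was higher (10.6 to 50.2 FPKM) and none was lower. Genes of sugar starvation had 3 higher and no lower members of 9. *DIN6*, an asparagine synthetase, went from 45.8 to 167 FPKM, *DIN1* from 167 to 548 FPKM and *BCAT2* from 10.7 to 36.6 FPKM, with log2 fold changes of 0.88 to 0.97 in WT.

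Among the 15 genes furthest on the higher side under the naming rule were the phloem protein genes *PP2-B13* (2.82 to 308 FPKM, log2 6.34) and *PP2-B14* (1.45 to 192 FPKM), the peroxidase *PER4* (1.37 to 116 FPKM), the glutamate decarboxylase *GAD4* (2.15 to 118 FPKM) and the metacaspase *MC8* (1.12 to 57.5 FPKM). Each of the 15 was also at least 2-fold higher in WT. Near-identical neighbours such as *PP2-B13* and *PP2-B14* or the *IGMT* genes can share reads, so their separate values are uncertain.

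Hormone lists had calls in both directions. Jasmonate biosynthesis, which starts from plastid fatty acids, had 3 higher and 1 lower gene of 12. The lipoxygenase *LOX4* went from 7.99 to 59.6 FPKM, and the allene oxide cyclases *AOC1* and *AOC3* from 22.9 to 82.4 FPKM and from 15.7 to 47.8 FPKM. Against these, the abundant lipoxygenase *LOX2* stood at 371 FPKM in mock and 12.9 FPKM after flg22 (log2 −4.74), and at 10.4 and 5.79 FPKM in WT. The repressor genes *JAZ1* (57.5 to 205 FPKM) and *JAZ5* (4.34 to 13.8 FPKM) were higher. *JR2*, a jasmonate-responsive cystine lyase, was lower (24.3 to 3.33 FPKM). Ethylene synthesis had 2 higher (16.7%) and 1 lower gene (8.33%) of 12, beside 5.61% and 4.32% over all genes. The called genes were all ACC synthases. *ACS6* (5.87 to 28.7 FPKM) and *ACS7* (1.04 to 10.2 FPKM) were higher, and *ACS8* (2.54 to 0.665 FPKM), named outside the rule, was lower. None of 11 ethylene perception and signalling genes passed 2-fold.

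For salicylic acid, 2 of 18 genes of synthesis and signalling were higher, *WRKY28* (above) and *CBP60G* (2.64 to 21.1 FPKM), both regulators of its synthesis. The receptor gene *NPR3* was at 8.997 and 17.7 FPKM (log2 0.91). The lower member (5.56%, near the 4.32% over all genes) was *SARD1*, a relative of *CBP60G* with the same role. *SARD1*, named outside the rule, was at 4.15 and 1.40 FPKM. Of 8 pathogenesis-related outputs, 4 were lower. *PR2*, a glucanase, was at 42.9 FPKM in mock and 1.65 FPKM after flg22, *PR5* at 39.9 and 5.09 FPKM, and *PR1* at 41.8 and 18.2 FPKM. In WT these genes had at most 1.83 FPKM in either column. The defensin *PDF1.2* was lower as well (13.7 to 6.14 FPKM), and the member counted as higher, *PDF1.1*, was listed at 0 in mock. Of 22 *Aux/IAA* repressors of auxin signalling, 2 were higher (9.09%, beside 5.61% over all genes), with *IAA2* at 113 and 289 FPKM. The small auxin-up RNAs (*SAUR*) had 5 higher and 12 lower of 61. *SAUR59* went from 29.6 to 134 FPKM and *SAUR6* from 124 to 45.1 FPKM. The auxin efflux carrier *PIN7* was lower, at 24.3 FPKM in mock and 10.8 FPKM after flg22.

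The cold and dehydration effectors, among them hydrophilic proteins that protect cells at low temperature and low water, had no higher and 8 lower genes of 16. Their median level was 177 FPKM in *wlim2a-1* mock and 38.5 FPKM after flg22, and 44.1 and 35.5 FPKM in WT. *ERD10*, a dehydrin, was at 2664 FPKM in mock and 113 FPKM after flg22 (log2 −4.54). *COR78*, also known as *RD29A*, was at 597 and 33.6 FPKM, *ERD7* at 402 and 33.6 FPKM and *COR15A* at 187 and 38.1 FPKM. In all, 14 of the 16 lay below 0 on the log2 scale. The 2 above 0 were *LTI30*, at 233 and 246 FPKM, and *COR27*, at 28.3 and 30.9 FPKM, both named for that reason. Of 9 CBF and DREB regulators tested, which sit upstream of this group, 2 were higher, *RAP2.9* (81.02 to 203 FPKM) and *CEJ1* (24.4 to 51.7 FPKM), and none was lower. Heat shock proteins, as listed by symbol or synonym, had 6 lower and no higher genes of 25 (median log2 −0.42). The lower count was 3 with the same nuclear sum or centring on the median and 13 relative to *ACT2* and *UBQ10*. Among the 6 was the endoplasmic reticulum chaperone *HSP90.7*, at 92.8 FPKM in mock and 36.9 FPKM after flg22. Of these lower heat shock genes, 2 had at least 10 FPKM in mock.

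Aliphatic glucosinolates, the methionine-derived branch, were called in the opposite direction to the indole branch. No gene of 19 was higher and 6 were lower (median log2 −0.88, and −0.30 in WT). *CYP79F1*, the entry enzyme, was at 20.7 FPKM in mock and 2.44 FPKM after flg22, and *CYP83A1*, the following step, at 125 and 41.3 FPKM. *IPMI2*, of the chain elongation cycle, was at 121 and 44.7 FPKM. The main regulator, *MYB28*, named outside the rule, was at 37.4 and 18.9 FPKM (log2 −0.95). Of 6 myrosinases and specifier proteins, which release and steer the toxic products, 4 were lower. The myrosinases *TGG1* (802 to 286 FPKM) and *TGG2* (280 to 109 FPKM) and the modifier *ESM1* (199 to 61.9 FPKM) were among them. *TGG1* and *TGG2* were at 276 and 89.8 FPKM in WT mock and at 288 and 93.7 FPKM in WT flg22. Guard cells are a known site of *TGG1* expression, and the guard cell marker *FAMA* was at 10.1 FPKM in mock and 4.76 FPKM after flg22 (log2 −0.94). The part of guard cells in the myrosinase values was not tested.

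**Figure D4:**
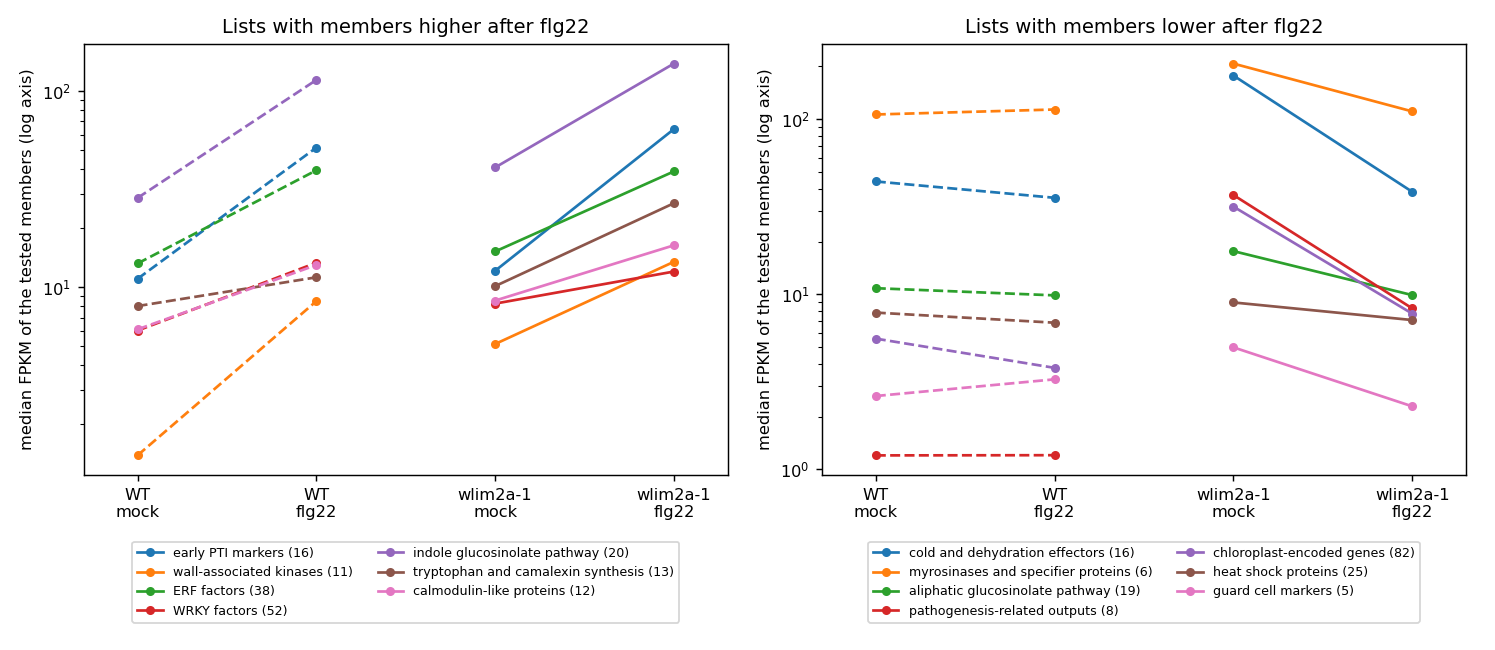
Median FPKM of the tested members of 14 lists in the 4 conditions (log axis), with dashed lines joining the WT columns and solid lines the *wlim2a-1* columns. The early PTI markers lie at 12.1 FPKM in *wlim2a-1* mock and 64.0 FPKM after flg22, and the cold and dehydration effectors at 177 and 38.5 FPKM.

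Nuclear photosynthesis genes lay slightly below mock, nearly all on one side. Of 21 light-harvesting proteins 20 were below 0, of 24 nuclear photosystem subunits 23, of 13 Calvin cycle enzymes all 13 and of 11 chlorophyll synthesis genes all 11. The medians lay between −0.66 for chlorophyll synthesis and −0.31 for light harvesting, and 10 of these 69 genes passed 2-fold. That count depended on the scaling: it was 5 with the same nuclear sum and 41 relative to *ACT2* and *UBQ10*. *PSAG*, a photosystem I subunit, was at 7398 FPKM in mock and 3505 FPKM after flg22. *GUN4*, an activator of the magnesium chelatase, was at 77.1 and 29.4 FPKM, and the Calvin cycle kinase *PRK* at 640 and 318 FPKM. In WT the medians of these 4 lists lay between −0.37 and −0.11.

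Genes encoded in the chloroplast had the largest share of lower genes, 59 of 82, with 6 higher (median log2 −1.68, and −0.29 in WT). Descriptions of the library kit differ between the labels and the study. The part of library preparation in the levels of chloroplast genes was not tested. The median of these genes was 31.7 FPKM in *wlim2a-1* mock, 7.76 FPKM after flg22, and 5.58 and 3.80 FPKM in WT. The gene furthest below mock among those above 0 after flg22 was ATCG00820, at 387 FPKM in mock and 4.25 FPKM after flg22. On the other side, ATCG00550 went from 380 to 1457 FPKM and ATCG00020 from 111 to 232 FPKM, while both were lower in WT (log2 −1.24 and −1.17). Of the remaining 4 higher chloroplast genes, all were listed at 0 in mock. Mitochondria-encoded genes had 5 higher and 9 lower of 57. Without the genes of both organelles, 1057 nuclear genes were higher and 754 lower.

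Among cell wall and growth genes, 1 list held most of the calls. Arabinogalactan and fasciclin proteins, glycoproteins of the cell surface, had 1 higher and 10 lower genes of 43 (median log2 −0.53). The other 164 genes of these lists had 3 higher, beside 5.61% over all genes, and 7 lower (4.27%, near the 4.32% over all genes). *AGP18* was at 207 FPKM in mock and 28.7 FPKM after flg22, *AGP9* at 265 and 73.7 FPKM and *FLA13* at 354 and 99.9 FPKM, and *AGP16* was higher (195 to 412 FPKM). Xyloglucan endotransglucosylases, which remodel the wall, had 3 higher (11.1%) and 2 lower (7.41%) of 27 tested. *XTH18* (28.5 to 290 FPKM) and *XTH23* (28.6 to 82.7 FPKM) were higher, and *XTH7* (23.0 to 9.60 FPKM) was lower. *CESA5*, a cellulose synthase subunit, was the member called of 8 (18.9 to 7.43 FPKM). Of 18 actins, actin depolymerizing factors and profilins, *PRF3*, a profilin, was lower (51.6 to 13.4 FPKM), and none was higher. No gene passed 2-fold among 5 LIM proteins, 15 tubulins, 20 cyclins, 20 aquaporins, 9 callose synthases or 10 clock genes.

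Beyond the lists, the genes furthest on the lower side under the naming rule were mostly chloroplast-encoded. The nuclear ones included *ERD10* and *LOX2* (above), AT4G30097 (4584 to 170 FPKM), AT3G22142 (179 to 9.01 FPKM) and AT2G13422. The last of these was at 7801 FPKM in *wlim2a-1* mock and 264 FPKM after flg22 and was listed at 0 in both WT columns.

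The WT columns share no sample with the mutant columns and were read over the same 19045 genes. In WT, 842 of them were higher (4.42%) and 70 were lower (0.368%). Of the 1068 genes higher in *wlim2a-1*, 1002 (93.8%) were above 0 in WT, 638 passed 2-fold there, and 17 were lower. Their median was 5.90 FPKM in WT mock and 20.6 FPKM in WT flg22. Of the 822 genes lower in *wlim2a-1*, 642 (78.1%) were below 0 in WT, 27 passed 2-fold there, and 15 were higher. Their median was 7.99 FPKM in WT mock and 6.45 FPKM in WT flg22, beside 20.04 FPKM in *wlim2a-1* mock and 6.88 FPKM in *wlim2a-1* flg22. Without replicate values, no difference between the genotypes was tested.

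**Figure D5:**
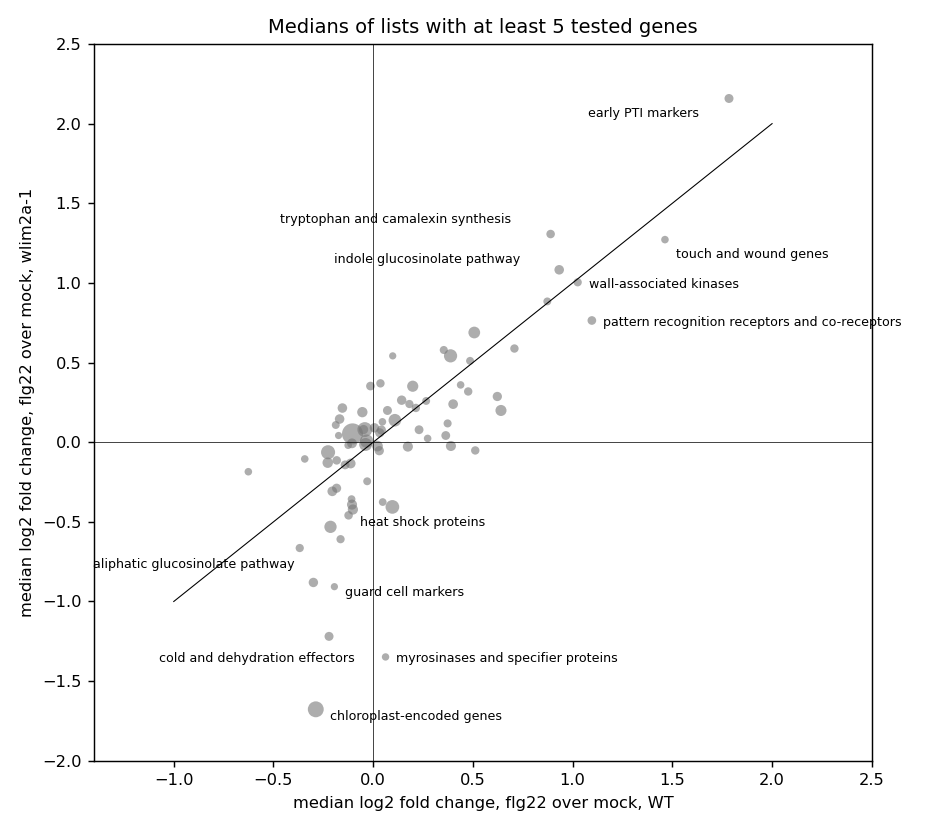
Median log2 fold change after flg22 of the 76 lists with at least 5 tested genes, in WT on the x axis and in *wlim2a-1* on the y axis, with point area growing with the number tested and a line of equality. Early PTI markers lie at 1.78 and 2.16, and chloroplast-encoded genes at −0.29 and −1.68; 38 of the 76 lists lie below the line.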

How the data were processed

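RNA-Seq data were deposited as 1 FPKM value per gene and condition, for which the authors had trimmed reads, aligned them with TopHat2 2.1.1 to TAIR10, assembled transcripts with Cufflinks and run Cuffdiff 2.2.1 with quartile normalization. Reads were checked with FastQC 0.11.5. Descriptions of the library kit differ between the labels and the study's methods and were not reconciled. Log2((flg22 + 1)/(mock + 1)) was computed with Python 3.11.15 and pandas 2.3.3, without rescaling. The code was tested on simulated data. A fold of at least 2 was called. Depth was unknown, so no interval is given.

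The 81 lists came from gene symbols and synonyms in the RefSeq table of TAIR10.1 (99.0% of tested genes matched) or from 324 written members, 10 of which were dropped as unmatched. A further 43 loci with a synonym of another family were dropped. Members and lists were chosen with earlier results of these data known. Genes named were, per list and direction, up to 4 with the largest change among called genes that reached 10 FPKM in one column and were above 0 in the other, the 15 largest over all genes in each direction, genes named by the study, and *ACT2* and *UBQ10*. Others were chosen after their values were seen. The alternatives were other pseudocounts, filters, thresholds and scalings.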

Additional observations from a re-analysis of the deposited data

How the results depend on the processing

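No paired analysis was possible because each column pools its replicates, and for the same reason no replicate could be left out. Fold threshold, pseudocount and the ratio to *ACT2* and *UBQ10* moved the counts by more than 1.5 times. At 1.5-fold, 2194 genes were higher and 2764 lower in *wlim2a-1*, and 1492 and 383 in WT. At 4-fold, the counts were 345 and 117 in *wlim2a-1*, and 296 and 19 in WT. With a pseudocount of 5 they were 683 and 364 in *wlim2a-1*, and 536 and 36 in WT. With 0.1, 1267 were lower in *wlim2a-1* and 176 in WT. Relative to *ACT2* and *UBQ10*, they were 533 and 3734 in *wlim2a-1*, and 466 and 627 in WT. The cause of these shifts beyond the settings' own construction was not tested. Under the other settings (no filter, at least 5 FPKM, the same upper quartile, the same nuclear sum, centring on the median, no organelle genes) every count stayed within 1.5 times. No named gene that was called changed sign under any setting. Relative to *ACT2* and *UBQ10*, 44 named genes were no longer called and 34 of 79 list medians changed sign. The promoter motifs that had been planned were not run.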

Other observations

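Families were also grouped by symbol stem, and those given here were picked after the values were seen. Over all tested genes 5.61% were higher and 4.32% lower. Some of their members are in the lists above, so these counts partly repeat the same calls. Phi glutathione transferases (*GSTF*) had 5 higher and no lower genes of 10 tested, WAK-like kinases 5 of 7, and indole glucosinolate methyltransferases 4 of 5. Phytosulfokine precursors, which encode a growth peptide that tempers PTI, had 2 higher of 5 (*PSK1* and *PSK4*). On the lower side, fasciclin-like proteins had 5 of 14, with a median log2 of −0.85, and *PTAC* genes, named for plastid transcription, 3 of 14, with a median of −0.72. The *PNSB* subunits of the plastid NDH complex had 2 lower genes of 5.

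Some called genes were neighbours. Of 1057 nuclear higher genes, 251 (23.7%) stood beside another higher gene in the order of tested loci, and of 754 lower ones, 76 (10.1%). Over all tested genes 5.61% were higher and 4.32% lower, and a gene has a neighbour on either side. The shares to be expected from gene order alone were not computed, so no excess is read from these counts. Of the 20 runs of at least 3 adjacent genes, 18 were higher and 2 lower. These included the 4 genes *IGMT1* to *IGMT4*, the kinases *WAKL2*, *WAKL4* and *WAKL5*, the cytochromes *CYP82C2* to *CYP82C4*, and *TDR1* (the *ERF98* above), *ERF1* and *MYB15*. On chromosome 4, the run AT4G22485 to AT4G22505 was higher in *wlim2a-1* (log2 1.46 to 1.57) and lay between −2.28 and −1.38 in WT. The next run, AT4G22517 to AT4G22530, was higher in *wlim2a-1* (log2 1.37 to 1.93) and divided in WT, from −1.81 to 1.99. Members of such runs can be near-identical copies that share reads.

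Gene length differed between the calls. Median RefSeq gene length was 1736.5 bp for higher genes, 2730 bp for lower genes and 2342 bp for all tested genes.

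Some very short loci alternated between 0 and high FPKM. Of 55 higher genes listed at 0 in mock, 19 had at least 100 FPKM after flg22, and 10 of the 12 with a known length were 200 bp or shorter. AT1G23650, at 87 bp, was listed at 0 in mock and at 2801 FPKM after flg22. AT5G20447, at 99 bp, was at 4685 FPKM in mock and listed at 0 after flg22, and both were at 0 in WT. Of 40 tested genes of up to 200 bp, 16 were higher and 12 lower.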
